A study of Mus musculus with 2 samples.

Results

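The genes examined here encode LHX2, LDB1, the 4 EBF proteins, EMX2 and ATF5, 8 regulators known for their part in odorant receptor choice. They were chosen by name, with earlier results of these data known. All 8 were found in a GRCm38 gene annotation, among 21755 protein-coding genes on the chromosomes that carry boundaries. The chromatin map came from mature olfactory sensory neurons that had chosen Olfr1507 (MOR28), an odorant receptor gene. The study has 1 group of 2 biological replicates, of 170000 and 220000 cells, with no treatment. The donors were adult MOR28-GFP mice, male and female mixed, listed with the strain 129P2/OlaHsd, and the neurons were sorted by fluorescence from their olfactory epithelium. The neurons were fixed with 1% formaldehyde and mapped by in situ Hi-C with the enzyme DpnII, a method that records which stretches of DNA lay near each other in the nucleus. Both replicates were merged by the authors before 1 list of 7367 boundaries was called, so no value below has a replicate error, the depth is unknown and no test between conditions exists. A boundary list holds no RNA levels, so neither the sorted cell type nor the expression of these genes could be checked.

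LHX2, a LIM-homeodomain factor, and the EBF factors bind together at enhancers within odorant receptor clusters. LDB1 is an adaptor without DNA binding of its own that attaches to the LIM domains of LHX2 and links bound enhancers to one another. EMX2 is a homeodomain factor that acts at receptor promoters, and ATF5 is a leucine zipper factor made once a receptor is expressed, as part of the feedback that stabilises the choice. A Hi-C boundary is a position that few contacts cross, and the stretch between consecutive boundaries is called an interval here. Boundary strength is the authors' own score, of unstated scale, with a lower limit of 0.20 in the list and a change of class from weak to strong at 0.50.

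The start sites of all 8 genes lay nearer to a boundary than that of the median protein-coding gene. The transcription start site (TSS) was taken as the 5′ end of the gene model, and its distance was measured to the midpoint of the nearest boundary, each boundary being an interval of 5000 bp. The distance was 3.22 kb for Lhx2, 4.16 kb for Atf5, 8.06 kb for Ebf3, 10.9 kb for Emx2, 14.8 kb for Ebf1, 25.8 kb for Ebf2, 37.3 kb for Ldb1 and 37.7 kb for Ebf4. In this order only the steps from Ebf1 to Ebf2 and from Ebf2 to Ldb1 were longer than 1 boundary interval, and the other neighbours cannot be ordered at this resolution. The median was 12.8 kb over the 8 genes and 61.1 kb over all protein-coding genes (quartiles 27.5 and 111 kb). All 8 were within 40 kb, a limit chosen after the values were seen, and 34.8% of all protein-coding genes were within it. Lhx2 stood at percentile 4.36 of all protein-coding genes for this distance, Atf5 at 5.54, Ebf3 at 9.67 and Emx2 at 11.6. Ebf1 stood at 14.8, Ebf2 at 23.7, Ldb1 at 32.5 and Ebf4 at 32.8.

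**Figure D1:**
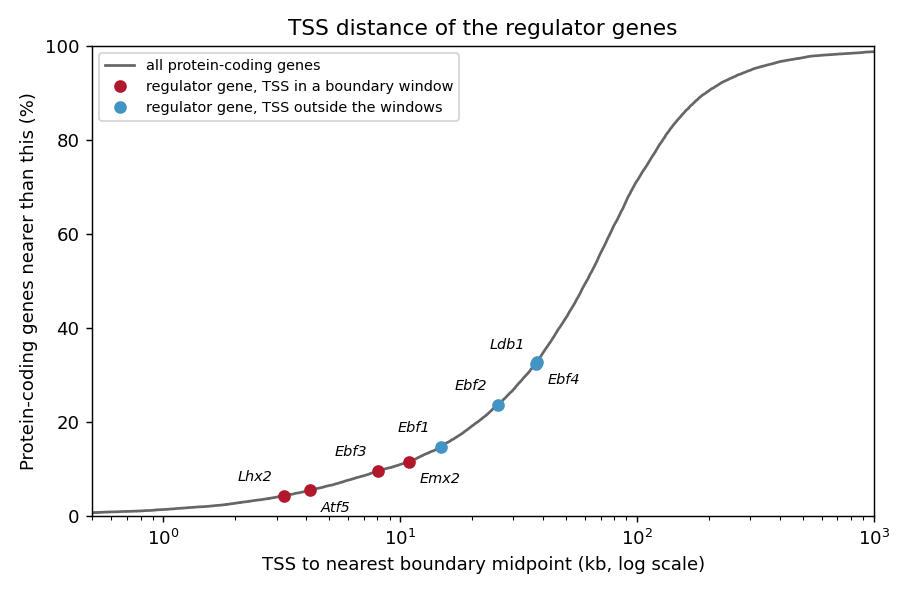
The curve gives the percentage of all protein-coding genes (y axis) whose TSS was nearer to a boundary midpoint than the distance on the x axis (kb, log scale), and the points are the 8 regulator genes. The points run from Lhx2 at 3.22 kb to Ebf4 at 37.7 kb, where the curve reaches 32.8%.

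A gene was scored as at a boundary if its TSS fell inside the 5000 bp of that boundary or up to 10 kb outside them. Lhx2, Atf5, Ebf3 and Emx2 met this, 4 of 8, against a background of 13.0% of protein-coding genes. The boundaries at Ebf3 and Emx2 were among the strongest in the list, with strengths of 2.50 and 2.33, while those at Lhx2 (0.447) and Atf5 (0.359) were weak. With strong boundaries alone the count was 2 of 8, against 8.39% of protein-coding genes. No TSS of the 8 lay in the bare 5000 bp of a boundary, where 3.45% of protein-coding TSSs did. With 5 kb in place of 10 kb the count was 2, Lhx2 and Atf5, against 9.10%, with 25 kb it was 6 against 25.0%, and with 50 kb it was 8 against 44.0%.

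The side and the strength of the nearest boundary varied with the gene. It lay upstream of the TSS for Ldb1, Ebf1, Ebf2, Ebf3, Ebf4 and Emx2, 6 of 8, against 52.3% of protein-coding genes. For Lhx2 and Atf5 its midpoint lay downstream, within the gene, but by less than 1 boundary interval, so the side is not resolved there. The nearest boundary was strong for Ldb1, Ebf1, Ebf2, Ebf3, Ebf4 and Emx2, 6 of 8, against 64.8% of protein-coding genes. Median strength was 1.17 at the boundaries nearest the 8 genes, 0.688 at those nearest all protein-coding genes and 0.539 at the other boundary flanking the 8 genes. The nearest boundary was stronger than the other flank at 6 genes. Neither this share nor the strength of the other flank was measured over all protein-coding genes. Its strength was 2.50 against 0.659 at Ebf3, 2.33 against 0.290 at Emx2, 1.64 against 0.498 at Ebf2, 1.31 against 0.360 at Ebf1, 1.04 against 0.641 at Ldb1 and 0.359 against 0.212 at Atf5. The far flank was the stronger at Ebf4, with 0.774 against 0.723, and at Lhx2, with 0.580 against 0.447.

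**Figure D2:**
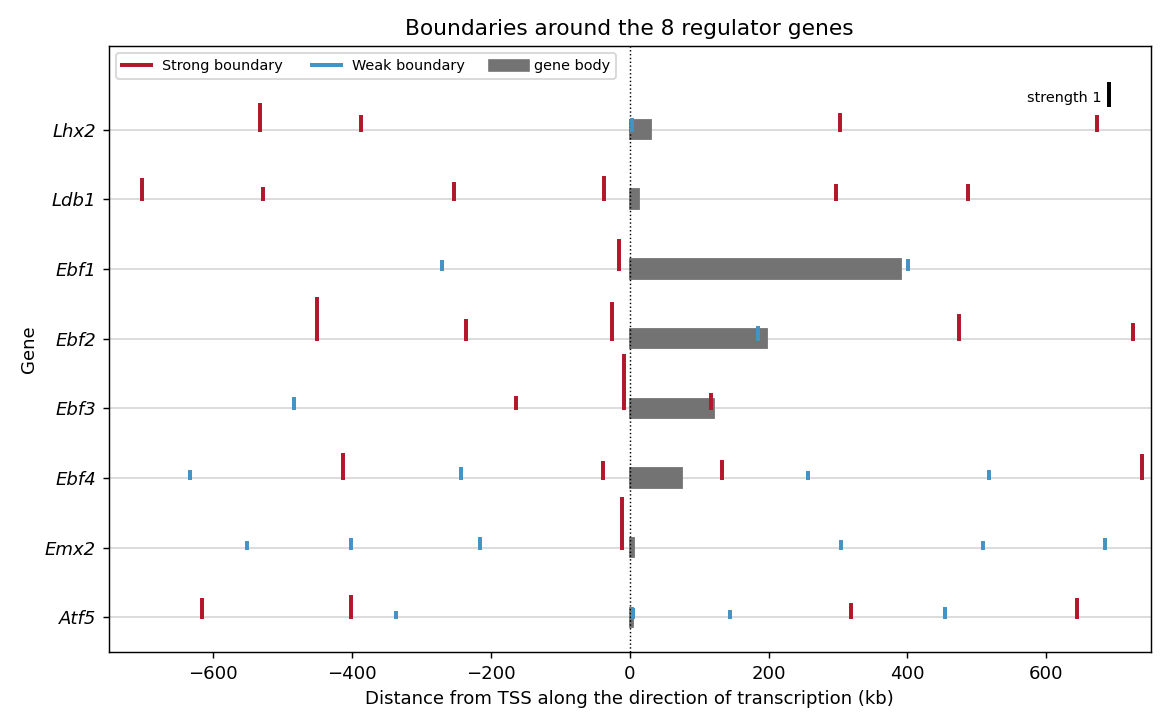
Each row shows 1 gene, turned so that transcription runs to the right, with distance from the TSS in kb on the x axis, the gene body as a grey bar and each boundary as a vertical line (red strong, blue weak) whose height is its strength. A boundary stands beside the dotted TSS line in every row, tallest for Ebf3 (2.50) and Emx2 (2.33).

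**Figure D3:**
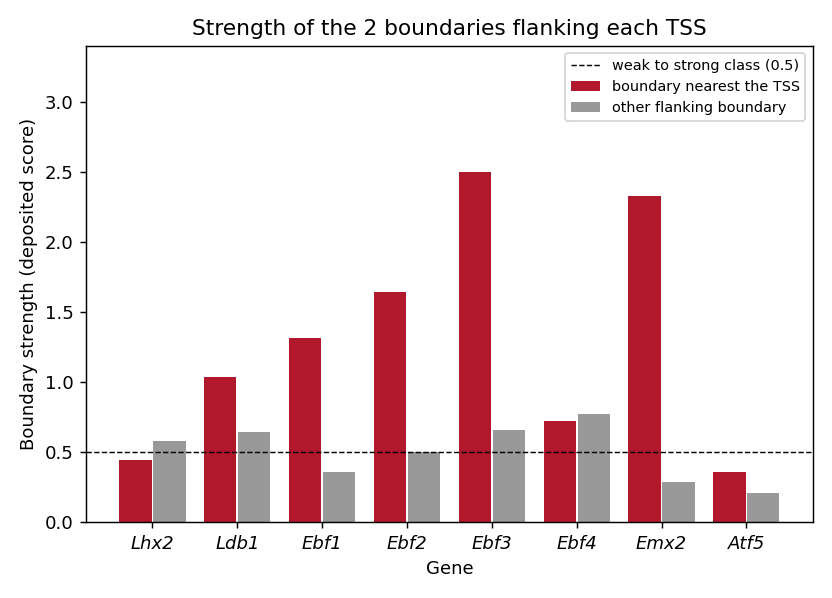
Bars give the deposited strength of the boundary nearest the TSS and of the other flanking boundary for each gene, with the class limit of 0.5 as a dashed line. The nearest boundary is the higher bar except at Lhx2 and Ebf4.

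Lhx2, on the forward strand of chromosome 2 at 38339281 to 38369733, had a weak boundary with its midpoint inside the gene. This boundary, at 38340001 to 38345000 with a strength of 0.447, began 0.720 kb downstream of the TSS and overlapped exon sequence of Lhx2. That gap is shorter than 1 boundary interval, so the side on which the TSS falls is not resolved. The values below take the midpoint as the border. Of the gene body, 89.4% lay beyond its midpoint, in an interval of 300 kb that holds the TSS of Nek6, a kinase gene, and ends at a strong boundary (0.706). The interval assigned to the TSS lay on the other side and was 390 kb long, longer than that of 72.2% of protein-coding genes. It held 1 other coding TSS, that of Dennd1a, a gene for a factor of membrane traffic, and ended inside an intron of Dennd1a at a strong boundary (0.580) at 37950001 to 37955000, 387 kb from the Lhx2 TSS. The nearest coding TSS past that boundary was that of Crb2, a gene of cell polarity. The 4 annotated coding start sites of Lhx2 fell on both sides of the midpoint of the weak boundary, 2 on each, so the interval of the gene depends on the start used. With strong boundaries alone Lhx2 lay in 1 interval of 690 kb, and its TSS was 303 kb from the nearest boundary.

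CTCF is a DNA-binding protein known to hold many boundaries in a motif-orientation-dependent way, and matches to its motif were searched in the 16 boundaries flanking the 8 genes, each widened by 10 kb. The matches are shown because this was the sequence feature searched at the boundaries, with the closest inexact match at the strong boundaries of Ebf3 and Emx2. They are printed 5′ to 3′ on the strand of the match, from the GRCm38 reference sequence, with the matching bases in capitals. The first of the Lhx2 matches lies in an intron of Dennd1a at the far flank (chr2:37961059-37961118, reverse strand) and points away from the interval. The other lies in an intron of Lhx2, 3.12 kb past the midpoint of the boundary near the promoter (chr2:38345594-38345653, reverse strand), and points into the interval.
Lhx2 far flank: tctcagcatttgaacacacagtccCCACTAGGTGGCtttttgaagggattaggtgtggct
Lhx2 near flank: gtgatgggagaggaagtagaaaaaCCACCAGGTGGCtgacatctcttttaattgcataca

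Ldb1, whose protein links LHX2-bound sites, lay in an interval shared with 7 other coding genes and closed by strong boundaries on both sides. Its coordinates are 46031570 to 46045214 on chromosome 19 (reverse strand), and the TSS was 37.3 kb from a boundary at 46080001 to 46085000 with a strength of 1.04. That boundary overlapped exon sequence of Nolc1, a nucleolar protein gene whose TSS was 6.64 kb from the midpoint, and the next coding TSS past it was that of Elovl3, of fatty acid elongation. The other flank (0.641), at 45745001 to 45750000 and 298 kb from the Ldb1 TSS, lay over Npm3, and past it came Fgf8, a growth factor gene with its TSS 4.59 kb from the midpoint. The interval was 335 kb long, and 61.6% of protein-coding genes shared theirs with fewer coding genes. The 7 others were Npm3, Mgea5, Kcnip2, Armh3, Hps6, Pprc1 and Nolc1. It kept its length with strong boundaries alone, unlike the intervals of Lhx2, Ebf1, Ebf2, Emx2 and Atf5. Ldb1 and Pprc1 overlap head to head, so a distance measured for one TSS nearly holds for the other.

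The far flank of Ldb1 was the 1 boundary of the 16 with motif matches inside its bare 5000 bp, and it had 3 matches in the widened window. A forward match 0.961 kb left of the midpoint (chr19:45746510-45746569) points into the interval, and a reverse match 0.182 kb right of it (chr19:45747653-45747712) points away. A further forward match lay in an intron of Fgf8, 10.1 kb left of the midpoint.
Ldb1 far flank, forward: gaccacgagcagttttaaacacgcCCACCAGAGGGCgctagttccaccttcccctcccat
Ldb1 far flank, reverse: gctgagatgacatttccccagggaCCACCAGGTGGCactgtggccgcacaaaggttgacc

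Among the 4 Ebf genes, Ebf1, Ebf2 and Ebf3 each filled most of the interval between their flanking boundaries, while Ebf4 did not. At Ebf2 and Ebf3 the boundary on the 3′ side had its midpoint inside the gene. These genes encode closely related helix-loop-helix factors, first described in olfactory neurons and early B cells. The gene body filled 94.2% of the interval of Ebf1, 93.6% of that of Ebf3 and 87.7% of that of Ebf2, and 100% of Ebf1, 96.8% of Ebf3 and 93.2% of Ebf2 lay inside the interval. The 3′ end of the gene, which the distances above do not use, was 3.83 kb from a boundary midpoint at Ebf3, 9.41 kb at Ebf1 and 13.4 kb at Ebf2, against a median of 56.2 kb over 2489 protein-coding genes of 100 kb or more. At Ebf4 it was 57.0 kb, and the gene, 100% of which lay inside its interval, filled 44.3% of that interval. At 75.3 kb Ebf4 is too short for that reference, and the median over all protein-coding genes was 58.9 kb. Its share of the interval was still above that of 92.6% of all protein-coding genes.

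Ebf1, Ebf2 and Ebf3 are long, and long genes fill more of an interval. Overlap of gene and interval, divided by their joint extent, was 94.2% for Ebf1, 90.8% for Ebf3 and 82.5% for Ebf2. The median was 40.2% over protein-coding genes of 100 kb or more and 5.51% over all. Among the 2480 genes of that length with an interval, Ebf1 ranked 21, Ebf3 ranked 51 and Ebf2 ranked 134. None of the 3 shared its interval with another protein-coding TSS. Emx2 was alone too, so 4 of 8 were, against 8.72% of protein-coding genes, and 37.7% of those of 100 kb or more were alone. The boundaries at the 3′ side of Ebf1 and Ebf2 were weak, and with strong boundaries alone Ebf1 filled 41.4% of an interval of 945 kb and Ebf2 39.5% of one of 500 kb, whereas Ebf3 kept its 93.6%.

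**Figure D4:**
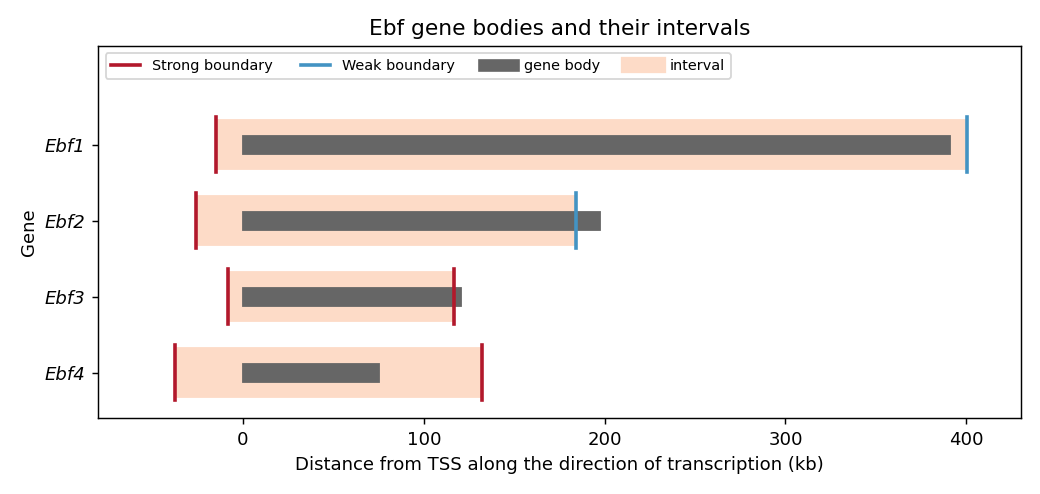
For each Ebf gene the grey bar is the gene body, the pale bar the interval and the vertical lines its flanking boundaries, against distance from the TSS in kb along the direction of transcription. The gene body nearly spans the interval for Ebf1 (94.2%), Ebf3 (93.6%) and Ebf2 (87.7%) but not for Ebf4 (44.3%).

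Ebf1 is at chromosome 11, 44617317 to 45008091, on the forward strand, and at 391 kb it was the longest of the 8 genes. The upstream boundary, at 44600001 to 44605000, was strong (1.31), lay 14.8 kb before the TSS and overlapped no annotated gene. The downstream boundary, at 45015001 to 45020000, was weak (0.360) and also overlapped no gene. The interval of 415 kb was longer than that of 75.1% of protein-coding genes. Rnf145, a ubiquitin ligase gene, had the next coding TSS upstream, and Clint1, an adaptor of membrane traffic, the next downstream, 835 kb past the downstream boundary. A reverse CTCF match lay 9.19 kb left of the downstream midpoint, just past the 3′ end of the gene (chr11:45008280-45008339), and points into the interval.
Ebf1 downstream flank: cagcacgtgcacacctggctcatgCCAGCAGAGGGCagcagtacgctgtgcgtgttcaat

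Ebf2 is at chromosome 14, 67233292 to 67430918, on the forward strand. Its upstream boundary, at 67205001 to 67210000, was strong (1.64), 25.8 kb before the TSS, and lay over exon sequence of the gene model Gm30806. The downstream boundary, at 67415001 to 67420000, lay in an intron of Ebf2 13.4 kb before the 3′ end, and its strength of 0.498 put it just under the strong class. Between them was an interval of 210 kb. The next coding TSSs outside were that of Ppp2r2a, of a phosphatase subunit, 135 kb upstream of the upstream boundary and that of Cdca2, a cell division gene, 298 kb past the downstream one. A forward CTCF match lay 4.42 kb right of the upstream midpoint (chr14:67211888-67211947) and points into the interval.
Ebf2 upstream flank: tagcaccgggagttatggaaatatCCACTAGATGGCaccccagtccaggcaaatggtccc

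Ebf3, at chromosome 7, 137193673 to 137314445, on the reverse strand, had the shortest interval and the strongest boundary of the 8 genes. The boundary upstream of its TSS, at 137320001 to 137325000, had a strength of 2.50, above 99.3% of all boundaries, and overlapped no gene. At the 3′ end a strong boundary (0.659) at 137195001 to 137200000 overlapped exon sequence of Ebf3 and of the antisense gene Gm45278. The interval of 125 kb was shorter than that of all but 3.63% of protein-coding genes. Outside it the next coding TSSs were those of 9430038I01Rik, 88.3 kb past the strong boundary, and Mgmt, a DNA repair gene, 303 kb past the other. One of the 4 coding start sites of Ebf3 was as far as 55.0 kb from the nearest midpoint.

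Neither flank of Ebf3 held an exact CTCF match. The match with 1 mismatch nearest to the midpoint of the strong boundary lay 0.831 kb left of it (chr7:137321640-137321699, reverse strand). It differs from the motif by A3C, the motif base first and the site base last, with positions counted from 1 at the 5′ end of the motif.
Ebf3 upstream flank, 1 mismatch: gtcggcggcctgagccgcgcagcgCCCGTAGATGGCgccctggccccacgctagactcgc

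Ebf4, at chromosome 2, 130295169 to 130370481, on the forward strand, shared an interval of 170 kb with 8 other coding genes. These were Nop56 and Idh3b before it, the first for ribosomal RNA modification and the second for the citric acid cycle, and Cpxm1, Gm28372, 1700020A23Rik, Tmem239, Pced1a and Vps16 behind it. Both flanks were strong and close in strength, 0.723 upstream at 130255001 to 130260000, over exon sequence of the ion channel gene Tmc2, and 0.774 downstream at 130425001 to 130430000, in Vps16. The next coding TSS past the downstream flank was that of the phosphatase gene Ptpra. Coding genes stood at 5.29 per 100 kb in this interval, against 0.241 at Ebf1, 0.476 at Ebf2 and 0.800 at Ebf3. No exact CTCF match lay at either flank of Ebf4.

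Emx2, at chromosome 19, 59458372 to 59465357, on the forward strand, was alone with noncoding genes in an interval of 315 kb. The boundary before it, at 59445001 to 59450000, had a strength of 2.33, above 98.7% of all boundaries, and lay in an intron of Emx2os, the antisense transcript that starts 0.263 kb inside Emx2 and runs back across its TSS. Every other boundary within 750 kb of Emx2 was less strong than this one. The downstream flank, at 59760001 to 59765000, was weak (0.290) and 304 kb from the TSS. Next outside were Pdzd8, of contacts between membranes, 102 kb upstream of the strong boundary and Rab11fip2, of membrane traffic, 181 kb past the weak one. With strong boundaries alone the interval was 1015 kb long. No exact CTCF match lay at either flank, and the nearest match with 1 mismatch lay 1.60 kb right of the strong midpoint (chr19:59449070-59449129, reverse strand), again with A3C.
Emx2 upstream flank, 1 mismatch: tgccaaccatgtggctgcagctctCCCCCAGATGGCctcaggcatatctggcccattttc

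Atf5, at chromosome 7, 44812256 to 44816658, on the reverse strand, lay in the most crowded interval of the 8, between weak boundaries, of which the far one was the weakest of the 16 flanking boundaries. The boundary at 44810001 to 44815000 overlapped the gene itself, its midpoint 0.244 kb from the 3′ end and 4.16 kb from the TSS, and had a strength of 0.359. The other flank, at 45150001 to 45155000, had a strength of 0.212, above 3.16% of all boundaries, and overlapped exons of Aldh16a1 and Pih1d1. Between them lay 340 kb with 25 other coding genes, more than for 93.7% of protein-coding genes, at 7.65 coding genes per 100 kb. Those near the Atf5 TSS included Il4i1, Nup62, Tbc1d17 and Akt1s1, and the interval also holds Prmt1, a gene for an arginine methyltransferase, and the ribosomal protein gene Rpl13a. Nup62, a nuclear pore gene, and Il4i1, of amino acid oxidation, start inside Atf5 on the other strand, so the boundary cannot be assigned to 1 of these 3 genes. Flt3l, a growth factor gene, had the TSS nearest to the far flank on its inner side, and Pih1d1 on its outer side. On the far side of the boundary Zfp473 was the next coding gene. With strong boundaries alone the TSS was 319 kb from a boundary, in an interval of 720 kb. A forward CTCF match lay 9.88 kb right of the far midpoint (chr7:45162354-45162413) and points away from the interval.
Atf5 far flank: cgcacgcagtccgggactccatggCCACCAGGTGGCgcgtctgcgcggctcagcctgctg

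Of the 16 flanking boundaries, 6 had an exact CTCF match within the widened window, against 23.9% of all boundaries. They belonged to Lhx2 (both flanks), Ldb1, Ebf1, Ebf2 and Atf5, and the strongest of them was that of Ebf2 (1.64), and the stronger boundaries of Ebf3 (2.50) and Emx2 (2.33) had none. In the bare 5000 bp the count was 1 of 16 against 6.22%, and with 25 kb added it was 9 of 16 against 39.1%. Of the 8 matches within 10 kb, 5 pointed into the interval and 3 away from it. The share pointing inward was not computed over all boundaries, so these counts have no reference. With 1 mismatch allowed all 16 had a match, and so did 88.4% of all boundaries, so that looser search parts few boundaries from the rest. An absent match says only that these letters are not in the window.

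Intervals of the 8 genes ran from 125 to 415 kb, with a median of 325 kb against 280 kb over all protein-coding genes. The order was Ebf3 (125 kb), Ebf4 (170 kb), Ebf2 (210 kb), Emx2 (315 kb), Ldb1 (335 kb), Atf5 (340 kb), Lhx2 (390 kb) and Ebf1 (415 kb), and Ldb1 and Atf5 differed by 1 boundary interval. Within 500 kb of the TSS there were 3 boundaries at Lhx2 and Ebf1, 4 at Ldb1, Ebf3 and Emx2, 5 at Ebf2 and Ebf4 and 6 at Atf5, with a median of 4 both here and over all protein-coding genes. A boundary midpoint lay inside the gene body of Lhx2, Ebf2, Ebf3 and Atf5, 4 of 8, against 12.7% of protein-coding genes. For Ebf2, Ebf3 and Atf5 it lay near the 3′ end and for Lhx2 near the start. At Lhx2 (3.22 kb), Ebf3 (3.83 kb) and Atf5 (0.244 kb) it was within 1 boundary interval of that end, below the resolution. A longer gene can hold more boundaries, and median gene length was 52883 bp for the 8 genes and 17414 bp for all. The share was not computed for genes of like length. GC content of the intervals ranged from 40.5% at Lhx2 to 51.8% at Atf5, with a median of 45.4% against 42.6% over all intervals. Of all intervals, 98.8% had less GC than that of Atf5. This reference counts each interval once, with or without a coding gene, unlike the references over protein-coding genes above.

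Promoter sequence was searched for the palindromic EBF motif and for TAATTA, bound by many homeodomain proteins, in the RefSeq windows from 250 bases before to 50 after each start (GRCm38.p6). The table held 12 windows for 7 of the genes, and Ebf2 had no entry. None of the 12 held the EBF motif on either strand, which 0.907% of 32619 windows did, and none held the CTCF motif, which 0.561% did. TAATTA was in 1 of them, that of Emx2, 36 bases past the RefSeq start (chr19:59458714-59458739, forward strand), and in 5.25% of all windows. RefSeq starts can differ from the TSSs used above. The Emx2 window, 59458440 to 59458739, lies wholly downstream of the TSS used above (59458372), and both Ebf1 windows lie downstream of that of Ebf1. The only Ebf4 window, 130295689 to 130295988, also lies wholly downstream of its TSS (130295169). So do the windows of Lhx2 from 38351058, of Atf5 from 44815609 and of Ldb1 from 46039572 and 46037021. No window of Emx2, Ebf1, Ebf4 or Ldb1 held the TSS used above, so the search did not cover those starts.
Emx2 window: tgatccccgcacTAATTAggctcatg

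Other genes of these pathways were measured the same way in 5 lists, kept whole. Of their 40 genes 5 had a TSS at a boundary, or 12.5%, close to the 13.0% of all protein-coding genes. Of 11 further LIM homeobox genes, relatives of Lhx2, 2 were at boundaries, Lhx1 (1.97 kb, strength 0.642) and Isl1 (2.19 kb, 0.249), and the list had a median distance of 50.8 kb. Isl1 also had the longest interval of that list, at 420 kb. Of 9 genes for partners in LDB1 complexes, 2 were, Ssbp2 (2.22 kb, 0.647) and Ssbp4 (11.4 kb, 0.700), both of the single-stranded DNA-binding protein family that stabilises LDB1, with a median of 42.3 kb. The longest interval there was that of Lmo3, at 990 kb.

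Ldb2, the relative of Ldb1, differed from it in setting. It lay alone in an interval of 355 kb, of which the gene filled 92.3%, and the boundary nearest its TSS was weak (0.242). Ldb1 filled 4.07% of its interval. Emx1, the relative of Emx2, had its TSS 49.9 kb from a boundary with a strength of 1.56. It was listed with Zfp423 and Zfp521, zinc finger partners of EBF proteins, whose distances were 123 and 280 kb. None of those 3 genes was at a boundary, and Zfp521 had the longest interval, at 910 kb.

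Of 7 genes of the feedback that includes Atf5, none was at a boundary, and the median distance was 50.6 kb. Adcy3, the adenylyl cyclase of odorant signalling, lay 50.6 kb from a boundary, Kdm1a, the histone demethylase lowered after receptor choice, 34.8 kb, and Eif2ak3, the kinase that senses unfolded proteins, 88.0 kb. Ddit3 had the longest interval there, at 280 kb. Atf4, the relative of Atf5, lay 37.3 kb from a strong boundary (0.752). Of 10 genes for chromatin factors, 1 was at a boundary, Ehmt1 (2.11 kb, 1.07), which encodes a histone H3 lysine methyltransferase, and the median distance was 61.0 kb. Ehmt2, its partner, had the longest interval of that list, at 360 kb.

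As other sets of transcription factor genes, the nuclear factor I family and a list named neurogenic basic helix-loop-helix genes were set beside the 8 genes. The second list includes Hes1, Hes5 and Hes6, and the difference was not tested. None of the 4 nuclear factor I genes and none of the 10 genes of the second list had a TSS at a boundary. With 13.0% of all protein-coding genes at one, lists this short do not stand apart from the background by a count of 0. Their median distances were 39.5 and 68.9 kb, against 12.8 kb for the 8 genes, and their median intervals 297.5 and 237.5 kb. The longest intervals were those of Nfia, at 610 kb, and Hes1, at 625 kb. The nearest TSS of the nuclear factor I family was that of Nfia, at 30.2 kb, and the ranges of distance of both lists overlapped that of the 8 genes. The nuclear factor I genes filled 56.7% (Nfia), 51.7% (Nfic), 49.0% (Nfix) and 40.6% (Nfib) of their intervals.

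**Figure D5:**
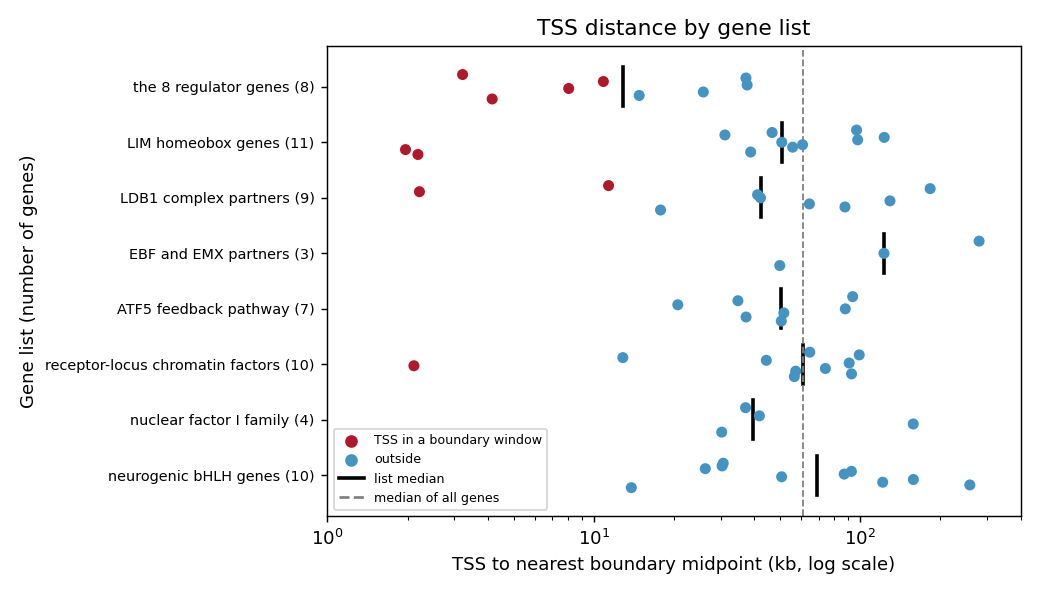
Points are single genes, placed by the distance from TSS to nearest boundary midpoint (kb, log scale), with red for a TSS in a boundary window and blue outside, a black line for each list's median and a dashed line for the median of all protein-coding genes (61.1 kb). The list of the 8 regulator genes has its median at 12.8 kb, and the other lists have theirs between 39.5 kb and 123 kb, with ranges that overlap it except for the EBF and EMX partners (49.9 to 280 kb).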

How the data were processed

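Per the series design text, contacts of both replicates were mapped to GRCm38 and combined into 1 matrix, on which boundaries were called. The authors' deposited boundary strength is a score of unstated scale, and the sources used here do not give the caller, window, aligner or filters. It was used only to describe, rank and filter boundaries. The deposited list has 7367 boundaries of 5000 bp, 4052 strong and 3315 weak, and no read counts, so depth and precision are unknown.

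Boundaries were joined to GENCODE genes (release M21, GRCm38) and to the RefSeq GRCm38.p6 sequence, which is of another strain than the mice, with Python 3.11.15, pandas 2.3.3 and numpy 2.4.6. For a symbol with several models the longest was taken. Percentiles give the percentage of protein-coding genes (or boundaries, or intervals) with a lower value. Intervals run between midpoints, and genes outside the outermost boundaries of a chromosome have none. CTCF matches were occurrences of the CTCF motif used in the search, a 12-base consensus, on either strand. The EBF motif was the 10-base palindrome with a spacer of 2 free bases. The measures were tested on simulated boundaries.

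The 8 genes and the lists were chosen with earlier results of these data known. No chance test was made. Named genes are the 8, the coding genes sharing their intervals (all if 10 or fewer, otherwise the 5 nearest), the nearest TSS on either side of each flanking boundary, and in other lists those at a boundary or in the longest interval. Others, among them Prmt1, Rpl13a, Ldb2, Emx1, Adcy3, Kdm1a, Eif2ak3 and Atf4, were named after their values were seen. Some genes that the rule names are not reported here. Alternatives covered which boundaries count, the window, the TSS, the genes counted and the motif. Insulation and compartment tracks, contact matrices and reads were not used here.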

Additional observations from a re-analysis of the deposited data

How the results depend on the processing

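With strong boundaries alone the 8 genes had a median TSS distance of 31.5 kb, 2 were at a boundary, the median interval was 595 kb with a median of 2 other coding genes, and 1 boundary lay in a gene body. With the 1842 strongest boundaries these values were 31.5 kb, 2, 1242.5 kb, 8 and 0. Leaving out boundaries can only lengthen distances and intervals, for any gene. Of these values only the share at a strong boundary, 8.39%, was measured over all protein-coding genes. Whether the contrast in median distance holds with fewer boundaries was not tested. The number of genes at a boundary was 0 with the boundary interval alone, 2 with 5 kb added, 6 with 25 kb and 8 with 50 kb, where 44.0% of protein-coding genes were counted. Counting all annotated genes gave a median of 5.5 others per interval. CTCF matches were at 1 of the 16 flanks with the interval alone and at 16 with 1 mismatch. With 25 kb added, 8 of the 40 pathway genes and 2 of the 14 comparison genes were at a boundary, against 25.0% of protein-coding genes. Merging boundaries under 100 kb apart, using any coding start or measuring to the boundary edge moved no median by more than 5 kb. It left 4 genes at a boundary where that was counted. The setting of any coding start took the start nearest a boundary, so starts as far as 55.0 kb (Ebf3) and 43.0 kb (Ldb1) did not enter. Merging lengthened the interval of Atf5 from 340 to 405 kb. The values rest on 1 list of unknown depth with a resolution of 5000 bp. No replicate could be left out, and no paired analysis was possible because both replicates were merged before boundaries were called.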
